A study of Mus musculus with 9 samples.

Results

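The collagen genes were followed in total RNA from the lungs of adult FVB/N mice with and without a transgene for human CFTR. They were taken as every probe set whose single annotated symbol had the form Col, a number, a and a number. This gave 58 of the 22690 probe sets on the array, for 36 genes. Of these 58, 17 belonged to 9 fibrillar collagen genes, 12 to 8 basement membrane collagen genes and 29 to 19 other collagen genes. The transgene, a CFTR cDNA, was driven by the promoter of Sftpc, the surfactant protein C gene, which directs it to respiratory epithelial cells and not to the mesenchymal cells that make most fibrillar collagen. Wild-type mice (WT) had no transgene, HE mice had 1 transgenic allele (SP-C-hCFTR+|-) and HO mice had 2 (SP-C-hCFTR+|+). All groups kept both copies of the mouse's own gene (mCftr+|+), except that 1 WT array has no genotype entry and is WT by its title. There were 3 Affymetrix 430A arrays in each group and 9 in all, numbered 1 to 3 within each genotype. HO replicate 2 is homozygous by its title and genotype entry, but its description writes the genotype with 1 allele. The labels do not say that the 3 samples of a group came from separate animals, so a p-value here reflects only how far these samples varied, and that variation may be technical.

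Collagens are proteins of 3 chains wound into a triple helix. Fibrillar collagens I, III and V assemble into the fibrils that give lung its tensile strength and are made mainly by fibroblasts and smooth muscle. Collagen IV forms the sheet-like network of the basement membrane under epithelium and endothelium, where the multiplexins XV and XVIII also lie, and collagen VI forms beaded filaments beside it. Collagen VII builds the anchoring fibrils that tie a basement membrane to the matrix below. In whole lung RNA, fewer cells of a type and less RNA per cell cannot be told apart.

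The arrays had median signals between 697.1 and 742, and every array had been scaled by the authors to a mean of 1500 after the lowest and highest 2% of values were left out. Signals are linear intensities, a log2 difference of 1 is a doubling, and signals of different probe sets are not comparable because probes bind with different strength. The tissue carried lung markers: the 7 tested markers of alveolar type II cells summed to between 198906 and 248364 on the 9 arrays. None of the 8 cartilage markers on the array and none of its 6 airway basal cell markers passed the filter on dim probe sets. Over all 13576 probe sets tested, 0 passed an adjusted p of 0.05 in any of the 3 pairwise comparisons or in the F test over genotypes with limma.

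The array measured 24 of the 36 collagen genes above the filter, at 34 probe sets. The filter removed probe sets with a mean log2 signal under 8.90, a signal of about 477. All 8 basement membrane genes were tested: Col4a1 to Col4a6, Col15a1 and Col18a1. Of the fibrillar genes, Col1a1, Col1a2, Col3a1, Col5a1 and Col5a2 were tested. The cartilage-type chains Col2a1, Col11a1 and Col11a2 were below the filter, as was Col5a3. Of the other collagens, Col6a1, Col6a2, Col6a3, Col7a1, Col8a1, Col9a1, Col12a1, Col13a1, Col14a1, Col16a1 and Col25a1 were tested, and Col9a2, Col9a3, Col10a1, Col17a1, Col19a1, Col20a1, Col22a1 and Col26a1 were not. The 24 probe sets below the filter had signals between 0.50 and 626.2, and 3 of them, of Col9a2, Col9a3 and Col22a1, lay at or under the floor of 25.5 on 8 or 9 of the 9 arrays. Col2a1, the main collagen of cartilage, ran from 19.7 to 172 over the 9 arrays, and Col10a1, of hypertrophic cartilage, from 30.7 to 105.

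No collagen probe set passed the test in any genotype comparison. In HO against WT, 0 of 34 had an unadjusted p under 0.05, where 4.49% of all probe sets did (1.69% higher, 2.81% lower), and the lowest collagen adjusted p was 0.992 with limma. In HE against WT, 2 of 34 had an unadjusted p under 0.05, both with signals below WT, where 3.11% of all probe sets had such a p (1.19% higher, 1.92% lower). They were one probe set each of Col18a1 and Col7a1. In HO against HE it was 1 of 34, Col18a1 again and higher in HO, against 2.56% of all probe sets (1.16% higher, 1.4% lower). The F test over the 3 genotypes gave 2 of 34, against 3.09% of all probe sets. For a typical collagen probe set the 95% interval of a difference reached 0.37 on the log2 scale to either side. All 34 intervals for HO minus WT lay within 1 log2 unit of 0, and 30 of 34 did for HE minus WT. HO and HE are set against the same 3 WT arrays, so their differences from WT are not independent of each other.

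**Figure D1:**
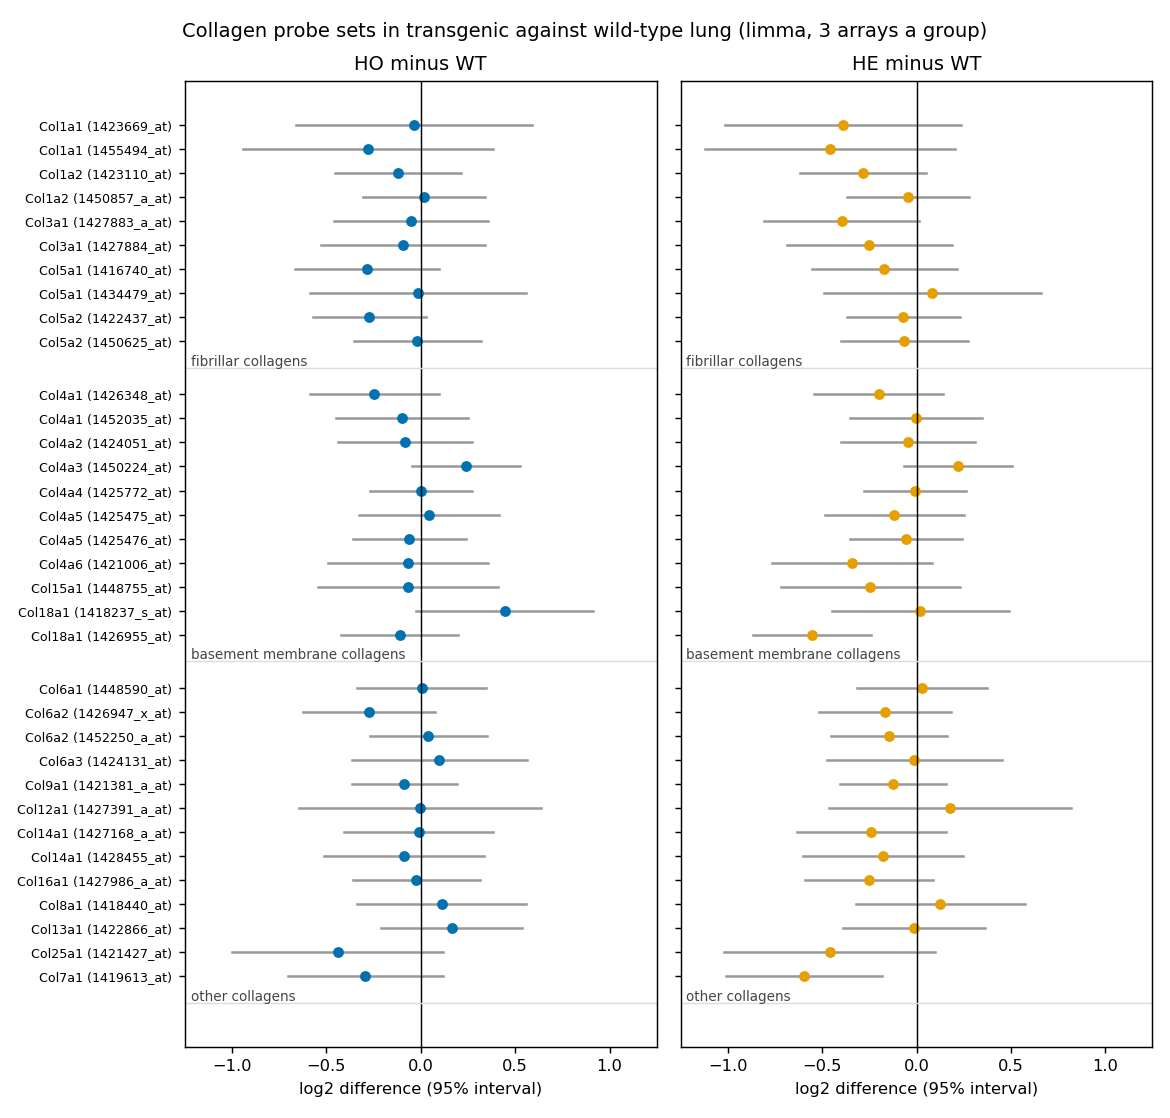
Log2 differences from WT for the 34 tested collagen probe sets, in HO (left) and HE (right). Points are limma estimates from 3 arrays a group and grey bars their 95% intervals; all 34 intervals contain 0 for HO, and 32 of 34 for HE, the exceptions being Col18a1 (-0.55) and Col7a1 (-0.60).

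The 34 differences were small and mostly below 0. In HO 24 of 34 collagen differences from WT were negative, where 51.2% of all probe sets were. With median centring of the arrays 17 of 34 were negative, where 38.9% of all probe sets were. The median difference was -0.06 over all collagens, -0.07 over the 10 fibrillar, -0.07 over the 11 basement membrane and -0.01 over the 13 other probe sets, beside -0.005 over all probe sets. In HE 28 of 34 were negative against 52.2% of all probe sets, and 24 of 34 against 42.1% after median centring. The HO median rested on single WT arrays: it was -0.13 without WT replicate 2, -0.008 without WT replicate 1 and 0.001 without WT replicate 3. In the last case 17 of 34 were negative, against 50.6% of all probe sets. The HE median of -0.14 was -0.23 without WT replicate 2, -0.083 without WT replicate 3 and -0.073 without HE replicate 2. The HE medians were -0.21 for fibrillar, -0.06 for basement membrane and -0.15 for other collagens, beside -0.007 over all probe sets. The fibrillar HE median was -0.05 without HE replicate 2, -0.12 without WT replicate 1 or WT replicate 3, -0.33 without HE replicate 1 and -0.36 without WT replicate 2. Between the transgenic groups 11 of 34 were lower in HO than in HE, where 48.6% of all probe sets were. Probe sets of 1 gene share a transcript, and some collagen chains are made by the same cells, so these counts are not of independent values.

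By array the collagens did not sort by genotype. Relative to the WT mean, the fibrillar median was 0.12, -0.21 and 0.12 on WT replicates 1, 2 and 3, -0.005, -0.38 and -0.12 on the HE replicates, and -0.03, -0.099 and -0.18 on the HO replicates. WT replicate 2 thus lay below all 3 HO arrays and 2 of the 3 HE arrays. The basement membrane median was 0.12, -0.28 and 0.12 on the WT arrays, and between -0.12 and 0.06 on the 6 transgenic arrays. WT replicate 2 was the lowest of the 9 for this class. Without WT replicate 2 the basement membrane median was -0.21 in HO and -0.20 in HE. Over all single arrays left out it ran from -0.21 to 0.02 in HO and from -0.20 to -0.02 in HE.

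**Figure D2:**
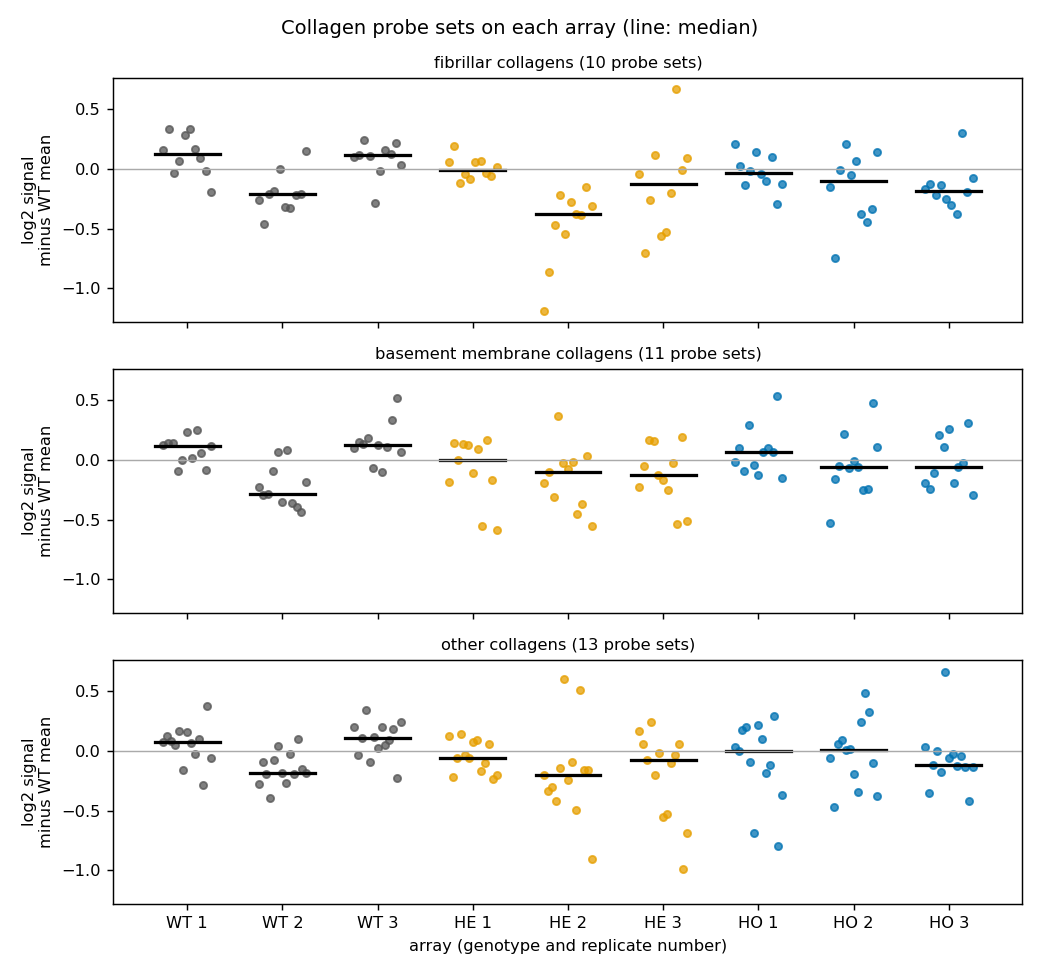
Log2 signal of each tested collagen probe set minus its WT mean, by array, in 3 classes. Each point is 1 probe set and each line the class median of that array; WT replicate 2 has the lowest basement membrane median (-0.28) and HE replicate 2 the lowest fibrillar median (-0.38).

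Col18a1 encodes the chain of collagen XVIII, a heparan sulfate proteoglycan of basement membranes whose C-terminal fragment is endostatin. It had the lowest p of all collagens in the genotype comparisons, and its transcripts start at separate promoters that give a long and a short form. The 250 bases before each of its RefSeq starts (GRCm38.p6, minus strand, chr10:77166531-77166780 and chr10:77113706-77113955) are shown because its probe sets disagreed, together with those of Col7a1, the other gene with an unadjusted p under 0.05 (plus strand, chr9:108953336-108953585). Capitals mark 3 motifs searched on both strands: the CCAAT box as CCAAT with its complement written ATTGG; the GC box as GGGCGG with its complement written CCGCCC; the TATA box as TATAAA with its complement written TTTATA.
Col18a1, first start: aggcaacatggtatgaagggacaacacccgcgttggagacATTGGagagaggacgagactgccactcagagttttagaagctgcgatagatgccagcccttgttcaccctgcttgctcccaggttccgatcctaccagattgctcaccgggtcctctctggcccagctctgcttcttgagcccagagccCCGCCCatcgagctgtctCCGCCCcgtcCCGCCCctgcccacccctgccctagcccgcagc
Col18a1, second start: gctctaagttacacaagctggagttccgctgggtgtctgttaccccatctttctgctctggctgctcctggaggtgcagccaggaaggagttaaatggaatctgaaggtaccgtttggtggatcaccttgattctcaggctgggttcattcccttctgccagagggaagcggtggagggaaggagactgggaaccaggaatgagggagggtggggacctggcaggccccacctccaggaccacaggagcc
Col7a1: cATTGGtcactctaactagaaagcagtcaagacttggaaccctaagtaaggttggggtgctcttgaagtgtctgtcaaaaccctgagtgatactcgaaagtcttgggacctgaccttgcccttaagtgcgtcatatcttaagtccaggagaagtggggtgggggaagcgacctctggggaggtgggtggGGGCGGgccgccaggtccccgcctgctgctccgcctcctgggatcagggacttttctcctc
The stretch before the first Col18a1 start held 3 GC boxes, 1 CCAAT box and no TATA box. That before the second start held none of the 3 motifs, and that of Col7a1 held 1 GC box and 1 CCAAT box. Of 32851 stretches of this length in the same RefSeq table, 32.7% held a GC box, 33.8% a CCAAT box and 12.4% a TATA box, on either strand. Of the 30 stretches of the 27 collagen genes with an entry, 16 held a GC box, 12 a CCAAT box and 5 a TATA box. A match of letters is a description only, and which start each Col18a1 probe set reports was not known here.

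The first Col18a1 probe set, 1426955_at, read 1986, 1608 and 1917 on the WT arrays, 1216, 1246 and 1279 on the HE arrays and 1650.5, 1970.0 and 1489 on the HO arrays. All 3 HE arrays lay below all WT and all HO arrays, while HO and WT overlapped. The HE difference from WT was -0.55 ± 0.14 log2 units (± is the SE throughout, with 3 arrays in each group), 0.68 times the WT signal, with a 95% interval of -0.86 to -0.24, an unadjusted p of 0.0024 and an adjusted p of 0.9997 with limma. HO minus HE was 0.44 ± 0.14 (unadjusted p = 0.0098, limma) and HO minus WT was -0.11 ± 0.14. Counting HO replicate 2, whose labels conflict, as HE gave an HE difference of -0.39 and an HO minus HE difference of 0.17, without an unadjusted p under 0.05 for the latter.

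The other Col18a1 probe set, 1418237_s_at, did not show the HE difference. It read 926, 723.5 and 1410 on the WT arrays, 873, 1004 and 1121 on the HE arrays and 1427, 1371 and 1219 on the HO arrays. WT spanned almost the whole range, and HO lay above HE on all arrays. At 3 of 34 collagen probe sets HO and HE did not overlap, these 2 of Col18a1 with HO higher and 1 of Col5a2 with HO lower, where 6.66% of all probe sets did not (3.47% higher, 3.19% lower). Its differences from WT were 0.02 ± 0.21 in HE and 0.45 ± 0.21 in HO (unadjusted p = 0.061, limma). The suffix s in its name means that its probes can match more than 1 transcript. Among the 10 genes with more than 1 tested probe set, Col18a1 had the widest gap between probe sets, 0.57 in HE and 0.56 in HO. The differences had the same sign at all probe sets of a gene in 8 of the 10 genes for HE and in 6 of 10 for HO.

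Col7a1, the chain of anchoring fibrils, gave the other low value in HE at its only probe set. Its signals were 698, 642 and 860.4 on the WT arrays, 634, 389 and 452 on the HE arrays, and 563, 561.0 and 662 on the HO arrays. The probe set was dim, with HE replicates 2 and 3 below the signal of about 477 at which the filter on the mean was set. HE replicate 1 lay just under WT replicate 2, so HE and WT did not overlap, and HO overlapped both. The HE difference was -0.60 ± 0.19 (0.66 times WT, 95% interval -1.01 to -0.18, unadjusted p = 0.0086, limma) and the HO difference -0.29 ± 0.19. Col16a1, a fibril-associated collagen, was the third probe set whose HE and WT arrays did not overlap. It read 1258, 1252 and 1321.5 in WT and 1139, 908 and 1192 in HE, a difference of -0.25 ± 0.15. These 3 of 34, all lower in HE, compare with 7.70% of all probe sets whose HE and WT arrays did not overlap (3.25% higher, 4.45% lower).

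**Figure D3:**
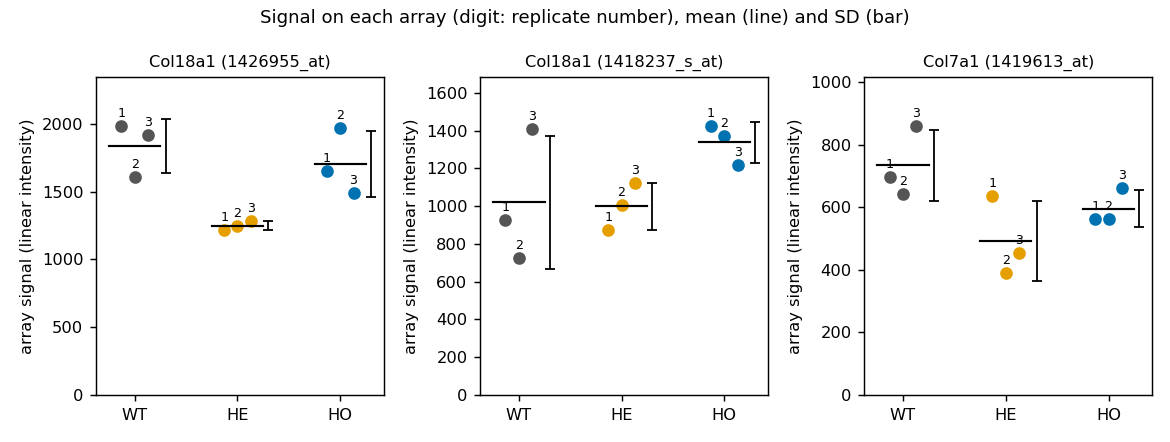
Linear array signal at both Col18a1 probe sets and at Col7a1 for WT, HE and HO. Points are arrays with their replicate number, lines are means and bars the SD of 3 arrays; the HE arrays (1216 to 1279) lie below all others at the first Col18a1 probe set but within the WT range at the second.

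Collagen I is built from chains of Col1a1 and Col1a2. At Col1a1 the probe set 1423669_at read 4550.3, 3394 and 4378 on the WT arrays, 4248.5, 1787 and 3963 on the HE arrays and 4701, 3680 and 3619 on the HO arrays. HE replicate 2 stood apart at less than any other array. The differences from WT were -0.04 ± 0.28 in HO and -0.39 ± 0.28 in HE. Without HE replicate 2 the HE difference was 0.01, and HO minus HE went from 0.35 to -0.05. The second probe set, 1455494_at, gave -0.28 ± 0.30 and -0.46 ± 0.30, with signals from 533 to 1230. Col1a2 was steadier: 1450857_a_at read 14524, 12233 and 14992 in WT, 11938 to 15065 in HE and 12610 to 16044 in HO. Its differences were 0.02 ± 0.15 in HO and -0.05 ± 0.15 in HE, and at 1423110_at -0.12 ± 0.15 and -0.28 ± 0.15.

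Col3a1, the chain of collagen III, which mixes with collagen I in distensible tissue, read 19672, 16202 and 13295 on the WT arrays at 1427883_a_at. It read 15270, 11114 and 10931 on the HE arrays and 17850, 15628 and 13599 on the HO arrays. The groups overlapped, with the 2 lowest signals in HE. Its difference in HE was -0.40 ± 0.19 (unadjusted p = 0.056, or 0.0082 with the replicate number as a block, adjusted p = 0.999, limma) and in HO -0.05 ± 0.19, and its other probe set gave -0.25 ± 0.20 and -0.09 ± 0.20. Collagen V starts fibrils and limits their width. Col5a2, the gene beside Col3a1 on chromosome 1, read 2918.5, 2549 and 3434 in WT, 2836, 2653 and 2936 in HE and 2405, 2331.5 and 2579 in HO at 1422437_at. The HO arrays lay below all HE arrays and reached into the WT range only with replicate 3. The HO difference was -0.27 ± 0.14, with an unadjusted p of 0.0695, or 0.0447 with the replicate number as a block (adjusted p = 0.826, limma). It was then 1 of 34 collagens under 0.05, against 5.95% of all probe sets in that fit, and its other probe set gave -0.02 ± 0.15. With the block, 4 of 34 collagens were under 0.05 in HE against WT, where 4.35% of all probe sets were, and 2 of 34 in HO against HE, where 3.49% were. Col5a1 gave -0.29 ± 0.17 and -0.015 ± 0.26 in HO at its 2 tested probe sets, and -0.17 ± 0.17 and 0.08 ± 0.26 in HE. Its remaining probe set was below the filter and, with no filter, gave 0.73 ± 0.62 in HO and 0.825 ± 0.62 in HE.

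Col4a1 and Col4a2 form the collagen IV network found in nearly all basement membranes and are neighbours on chromosome 8. Col4a1 read 17525, 12966 and 17667 on the WT arrays at 1452035_at, 17548, 14791 and 15362 on the HE arrays, and 17091, 14212 and 13419 on the HO arrays. WT replicate 2 was the lowest of the 9. The differences were -0.10 ± 0.16 in HO and -0.003 ± 0.16 in HE, with -0.25 ± 0.16 and -0.20 ± 0.16 at its other probe set. Col4a2 read 9839, 7295 and 9778.5 in WT, 8900 to 9967.5 on HE replicates 1 and 3 with 7167 on HE replicate 2, and 8230 to 8570.4 in HO. Its differences were -0.09 ± 0.16 and -0.05 ± 0.16.

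Col4a3, Col4a4 and Col4a5 encode the other collagen IV network, that of the alveolar and glomerular basement membranes. Col4a3 was the one collagen probe set whose HO arrays did not overlap WT, where 8.88% of all probe sets did not (3.98% higher, 4.90% lower). It read 2337, 2332 and 2827 in WT, 2735, 3216 and 2775 in HE and 3046, 2892 and 2884 in HO. The lowest HO array stood just above WT replicate 3, and HE overlapped WT. The differences were 0.24 ± 0.13 in HO and 0.22 ± 0.13 in HE (unadjusted p = 0.092 and 0.117, limma). Its neighbour on chromosome 1, Col4a4, ran from 1426 to 1694 over the 9 arrays and differed by 0.00 ± 0.12 in HO and -0.01 ± 0.12 in HE, the narrowest error of all collagens. Col4a5 gave 0.04 ± 0.17 and -0.06 ± 0.14 in HO at its probe sets, and Col4a6, its neighbour on chromosome X, -0.07 ± 0.19 in HO and -0.34 ± 0.19 in HE. The other Col4a6 probe set was below the filter and, with no filter, gave -0.13 ± 0.19 in HO and 0.22 ± 0.19 in HE. Col15a1, the chain of collagen XV, read 618.5, 454 and 750 in WT, 668, 461 and 410 in HE and 622, 502 and 586 in HO. These ranges overlapped throughout, with differences of -0.07 ± 0.22 in HO and -0.25 ± 0.22 in HE.

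Collagen VI is assembled from chains of Col6a1, Col6a2 and Col6a3. Col6a1 read 6615.5, 5186 and 7234.5 in WT, 6844, 5466 and 7060 in HE and 6449, 6027 and 6447 in HO, differences of 0.005 ± 0.16 in HO and 0.03 ± 0.16 in HE. Col6a3 read 6390, 4712 and 7846 in WT, 6816, 4633 and 7310 in HE and 7090, 6599 and 6199 in HO, with differences of 0.10 ± 0.21 and -0.01 ± 0.21. In both genes replicate 2 was the lowest WT array and the lowest HE array. Col6a2, beside Col6a1 on chromosome 10, read 7293, 5999 and 7426 in WT at 1452250_a_at, 6591, 5583.5 and 6522 in HE and 7751, 7161 and 6352 in HO. It differed by 0.04 ± 0.14 in HO and -0.15 ± 0.14 in HE, while its other probe set gave -0.27 ± 0.16 and -0.17 ± 0.16. The remaining tested collagens, Col8a1, Col9a1, Col12a1, Col13a1, both Col14a1 probe sets and the transmembrane Col25a1, had HO differences between -0.44 (Col25a1) and 0.16 (Col13a1), and HE differences between -0.46 (Col25a1) and 0.18 (Col12a1).

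Of the collagens below the filter, Col17a1, the transmembrane collagen of hemidesmosomes, read 177, 81.7 and 161 in WT, 270, 141 and 144 in HE and 235, 238 and 234 in HO. Its HO arrays lay above its WT arrays, as they did at 3.98% of the probe sets above the filter. That share was not counted for dim probe sets. With no filter Col17a1 had an HO difference of 0.83 ± 0.35 (unadjusted p = 0.0485, adjusted p = 0.921, limma). It was the 1 of 58 collagen probe sets higher in HO at that level, against 1.73% of all probe sets. In HE the 1 of 58 that was higher, against 1.38%, was a probe set of Col9a3, a chain of the fibril-associated collagen IX. It read 13.1, 36.5 and 26.7 in WT, 53.8, 156 and 105 in HE and 29.7, 88.1 and 36.1 in HO, close to the floor of 25.5. Its HE difference was 1.72 ± 0.50 (unadjusted p = 0.0107, limma), which did not pass an adjusted p of 0.05. Its suffix x means that its probes can match other sequences. The other Col9a3 probe sets did not show a rise in HE. They gave 0 at 1460693_a_at, which lay at the floor, and -0.14 ± 0.11 at 1460734_at.

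No collagen passed the test for a difference between the replicate numbers, and the 2 lowest p-values were at Col1a1 and Col5a1. Each number holds 1 array of each genotype and also a common prefix of the source names, and the labels do not say what it stands for. In a test of the number beside genotype, 6 of 34 collagen probe sets had an unadjusted p under 0.05, against 12.0% of all probe sets. None passed an adjusted p of 0.05, and 2 of the 13576 probe sets (0.0147%) did. These 6 were both Col1a1 probe sets, both Col5a1 probe sets, Col3a1 and Col14a1, so 5 of 6 were of fibrillar collagens. With number 2 lowest there were 5 of 34 with such a p, against 3.96% of all probe sets. The count of 6, with any number lowest, became 3 without HE replicate 1 and ran from 3 to 9 over all single arrays left out.

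Averaged over genotypes, Col1a1 at 1455494_at lay 0.43 above the genotype mean on the arrays numbered 1, 0.01 above it on those numbered 3 and at -0.44 on those numbered 2 (unadjusted p = 0.0012, adjusted p = 0.281, limma). Its signals of 708, 533 and 581 on the number 2 arrays of WT, HE and HO were the lowest of each genotype. The other Col1a1 probe set gave 0.28, 0.11 and -0.39 in the same order. Col1a2, its partner in the collagen I helix, stayed between -0.09 and 0.05 at both probe sets, with limma p-values for the number of 0.580 and 0.824. Col3a1 at 1427883_a_at followed another order, with 0.26 for number 1, -0.05 for number 2 and -0.22 for number 3 (unadjusted p = 0.0084, limma), the same order in all 3 genotypes. Its other probe set gave 0.23, -0.06 and -0.17 (unadjusted p = 0.0897, limma), and there WT and HO did not follow that order. Col5a1 at 1434479_at was lowest on number 2 (-0.37) and highest on number 3 (0.34).

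**Figure D4:**
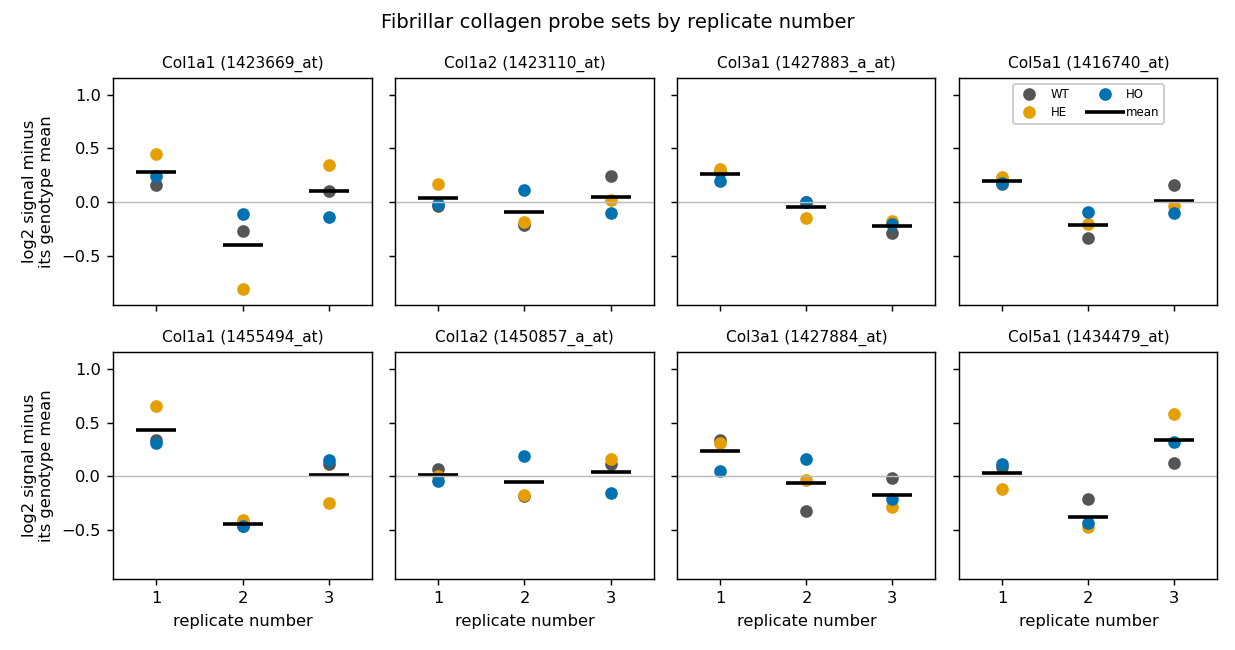
Log2 signal minus the genotype mean for 8 fibrillar collagen probe sets, by replicate number. Points are arrays in the colour of their genotype and bars the mean of 3; number 2 is low for Col1a1 (-0.39 and -0.44) and Col5a1, and Col3a1 at 1427883_a_at goes from 0.26 for number 1 to -0.22 for number 3.

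Number 2 had the lowest mean for 21 of 34 collagen probe sets, against 33.2% of all probe sets, number 1 for 6 (34.7%) and number 3 for 7 (32.1%). WT replicate 2 was the lowest WT array for 26 of 34, where 35.2% of all probe sets had it lowest. HE replicate 2 was the lowest HE array for 17 of 34 (33.1% of all probe sets) and HO replicate 2 the lowest HO array for 12 of 34 (31.7%). Replicate 2 was the lowest in all 3 genotypes for 6 of 34, against 5.20%. Without the 3 arrays numbered 2, left out after the data were seen, Col18a1 and Col7a1 had an unadjusted p under 0.05 in HE against WT. These were 2 of 34, where 281 of the 13576 probe sets were lower at that level and 138 higher. Differences were negative for 28 of 34 in HO, against 52.3% of all probe sets, and for 28 of 34 in HE, against 53.0%.

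The signals of markers of other cell types also varied between the arrays. Neutrophil markers, with 6 tested of the 7 on the array, summed to 10198 to 46030 in WT, 11072 to 62685 in HE and 8750 to 24364 in HO, with median differences of -0.37 in HO and 0.42 in HE. Relative to WT their median was 0.80 on WT replicate 2, 0.40 on HE replicate 2 and 1.43 on HE replicate 3, 0.22 on HO replicate 1 and below 0 on the other 5 arrays. The 7 tested smooth muscle markers summed to 15628 to 25686 in WT, 18839 to 22859 in HE and 16925 to 18492 in HO, with median differences of -0.13 in HO and -0.04 in HE. By array they had medians of -0.27 on WT replicate 2 and -0.26 on HO replicate 2, against 0.43 on WT replicate 3. The 9 tested fibroblast markers summed to 50601 to 56256 in WT, 58199 to 58603 in HE and 57076 to 60185 in HO. Their median differences were 0.09 in HO and -0.01 in HE. The sums lay above WT on every transgenic array, but the fibroblast medians by array overlapped. These were -0.01, -0.07 and 0.04 on the WT replicates, 0.13, -0.04 and 0.008 on the HE replicates and 0.16, 0.13 and -0.006 on the HO replicates. The 8 endothelial markers had medians of 0.13 in HO and 0.06 in HE and summed to 62076 to 72579 in WT, 71733 to 72209 in HE and 65321.5 to 78351 in HO. Sums of the 7 alveolar type I markers were 126307 to 148602 in WT, 126173 to 142870 in HE and 136963 to 151105 in HO. The 4 mesothelial markers summed to 11682 to 18030.5, 11858 to 15906 and 11754 to 17043, and the 6 cardiac muscle markers to 25767 to 29848, 23337 to 39616 and 23422 to 41046, in the same order. The part of these cells in the collagen values was not tested. The ratio of 3' to 5' Actb control probe sets, a sign of RNA quality, was 1.07 on HE replicate 2, the lowest of the 9, and up to 1.39.

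The genes that make, bind and remove collagen were taken from 7 lists, with 1 probe set for each gene, that of highest mean signal. None of the 76 tested passed over all probe sets in any comparison. In HO 1 of 76 had an unadjusted p under 0.05 and was higher, where 1.69% of all probe sets were higher at that level, and in HE 2 of 76 were higher, against 1.19%. Chaperones and enzymes that fold and hydroxylate procollagen had 12 of 14 members above WT in HO, with a median of 0.07, and 9 of 14 in HE, with a median of 0.01, none with an unadjusted p under 0.05. Of all probe sets 48.8% were above WT in HO and 47.8% in HE, and median centring alone moved the HO median of all probe sets from -0.005 to 0.05. Among them were the prolyl hydroxylase subunit P4ha2 (0.28 ± 0.16 in HO, 0.17 ± 0.16 in HE), Crtap of the prolyl 3-hydroxylase complex (0.20 ± 0.14 in HO), the collagen chaperone Serpinh1 (0.00 ± 0.19 in HO, -0.24 ± 0.19 in HE) and P3h3 (0.17 ± 0.14 in HE). Enzymes of propeptide removal and crosslinking had medians of 0.03 in HO and 0.00 in HE over 7 genes. The lysyl oxidase Lox was at 0.28 ± 0.17 in HE, the procollagen proteinase Bmp1 at -0.21 ± 0.15 in HE, and the proteinase enhancers Pcolce and Pcolce2 at 0.20 ± 0.16 and 0.20 ± 0.13 in HO.

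Proteins that bind fibrils had 9 of 13 members above WT in HO (median 0.18) and 6 of 13 in HE (median -0.02), beside the same 48.8% and 47.8% of all probe sets. None had an unadjusted p under 0.05 in HO, and 1 did in HE. That gene, fibronectin (Fn1), was at 0.37 ± 0.15 in HE (unadjusted p = 0.032, limma) and at 0.07 by its other probe set. The small proteoglycan Bgn was at 0.29 ± 0.15 in HO and dermatopontin, Dpt, at 0.26 ± 0.14 in HO and 0.30 ± 0.14 in HE. Laminins and other basement membrane partners had medians of 0.13 in HO and 0.06 in HE over 12 genes. Of these the laminin chains Lama4 (0.28 ± 0.18), Lama5 (0.23 ± 0.17) and Lamb1 (0.15 ± 0.13) were at these values in HO, with 0.25, 0.06 and 0.28 in HE. Degrading enzymes and their inhibitors had medians of -0.10 in HO and -0.05 in HE over 9 genes. Timp3, an inhibitor of matrix metalloproteinases held in the matrix, was at 0.29 ± 0.12 in HO (unadjusted p = 0.034, limma) but at -0.10, -0.11 and -0.08 by its other probe sets. Mmp14, a membrane-bound collagenase, was at -0.29 ± 0.15 in HO, the gelatinase Mmp2 at -0.25 ± 0.19 in HE and cathepsin K, Ctsk, at -0.35 ± 0.26 in HE.

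Collagen receptors had 5 tested genes, with medians of -0.09 in HO and -0.16 in HE. The discoidin receptors Ddr1 and Ddr2, which collagen activates, were at -0.20 ± 0.15 and 0.13 ± 0.15 in HO and at -0.24 ± 0.15 and 0.17 ± 0.15 in HE. Genes of TGF-beta signalling, the main inducer of collagen transcription, had medians of 0.05 in HO and 0.03 in HE over 16 genes. Tgfb1, a ligand, was at -0.22 ± 0.20 in HO and -0.38 ± 0.20 in HE. Skil, an inhibitor of the Smad proteins and a target of the pathway, was at 0.46 ± 0.19 in HE (unadjusted p = 0.033, limma), while Smad7, its inhibitory Smad, was at 0.28 ± 0.15 in HO and -0.05 ± 0.15 in HE, and Smad4 at 0.18 ± 0.12 in HO.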

How the data were processed

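The authors' deposited intensities, on a linear scale with 1 for each probe set on an array, had been brought to a trimmed mean of 1500, as their values show. The sources used here do not name the summarising software. Intensities were raised to a floor at their 5th percentile (25.5) and taken to log2. The 64 control probe sets and probe sets whose average log2 lay below the 40th percentile (8.90) were removed; 13576 remained. A limma model of genotype means on the 9 arrays was used: limma 3.58.1 (lmFit, eBayes) in R 4.3.3, with Benjamini-Hochberg adjustment over these 13576. The replicate number was tested with genotype in the fit. Deviations of same-numbered HO and WT arrays correlated at 0.19, 0.14 and 0.28 across probe sets. Those of HO and HE arrays correlated at 0.16, 0.15 and 0.03, and for HE and WT 2 of 3 correlations were under 0.1. Differently numbered arrays were not set beside these, so pairing by number is possible but the values do not settle it. The p-values of the genotype comparisons come from the fit without pairing, except where the replicate number is named as a block. No 2 arrays were copies (smallest median absolute log2 difference 0.183). The number of arrays limits the precision.

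Symbols came from the platform annotation, and all 58 probe sets matched RefSeq (GRCm38.p6) by gene identifier; that assembly was used for neighbours and for the 250 bases before a start. The text names all collagens, and the 2 genes of lowest p per pathway list in HO and in HE. For 12 genes set in advance and for those with an unadjusted p under 0.05, array values or their ranges are given. They do not cover every probe set. Members and lists were chosen with earlier results of these data known. Col9a3, Col16a1, Col17a1 and further Col4a6, Col5a1 and Col14a1 values were described after their values were seen. The fit was tested on simulated data with independent normal noise. At an adjusted p of 0.05 it called 11.2% of simulated HO minus WT differences of 0.5 log2 units in size. Of those of 1 log2 unit it called 87.3%. Alternatives were other scalings, filters, floors, variance priors and arrays.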

Additional observations from a re-analysis of the deposited data

How the results depend on the processing

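Alternatives changed the scaling (quantile normalization or median centring), the filter (none, or the 60th percentile), the floor (none, or the 20th percentile), the block (replicate number), eBayes (trended and robust) and the arrays: a fit of only the arrays compared, HO replicate 2 counted as HE, each array left out in turn and, chosen after seeing the data, no arrays numbered 2. No collagen difference between genotypes passed an adjusted p of 0.05 under any of them. Col18a1 at its probe set 1426955_at had an unadjusted p under 0.05 in HE against WT under all 20 (differences of -0.65 to -0.39) and Col7a1 under 19, as the 60th percentile filter removed it (-0.795 to -0.44). The count of collagens under 0.05 in HO against WT, 0, became 1 with quantile normalization, without the filter, with the replicate block and with HO replicate 2 as HE. It became 2 with median centring and lay between 0 and 2 with 1 array left out. Without WT replicate 2 the 2 were Col5a1 and Col5a2, and without WT replicate 3 Col4a3 and Col18a1. Of all 13576 probe sets, 289 were lower and 287 higher under 0.05 with quantile normalization, and 507 and 301 with the block. These counts were 243 and 126 with HO replicate 2 as HE, 211 and 428 with median centring, and 259 to 662 and 138 to 339 with 1 array left out. Without the filter they were 834 and 391 of 22626. In HE against WT, 2 became 4 with the replicate block, adding Col1a1 and Col3a1. The count became 3 with quantile normalization or trended and robust eBayes (both adding Col3a1) and without the filter (adding Col9a3, higher in HE). It was 2 to 4 with 1 array left out, and the 60th percentile filter gave 2, with Col3a1 in place of Col7a1. Over all probe sets the lower and higher counts were 371 and 220 with the block, 222 and 206 with quantile normalization and 236 and 164 with trended and robust eBayes. They were 199 to 354 and 106 to 254 with 1 array left out, 680 and 312 of 22626 without the filter, and 138 and 122 of 9051 with the 60th percentile filter. In HO against HE, 1 became 2 with the replicate block and with only the arrays compared, 0 with HO replicate 2 as HE or without the arrays numbered 2, and 1 to 3 with 1 array left out. The counts over all probe sets were 243 lower and 231 higher with the block, 185 and 159 with only the arrays compared, and 164 and 140 with HO replicate 2 as HE. They were 96 and 125 without the arrays numbered 2, and 141 to 415 and 124 to 260 with 1 array left out. For the replicate number, the 6 collagens became 3 to 9 with 1 array left out. Over all probe sets, calls at an adjusted p of 0.05 went from 0 to 2 in HE against WT, HO against HE and the F test without the filter, and from 0 to 0 to 1 in HO against WT, HE against WT, both transgenic groups against WT and the F test with 1 array left out. For the replicate number, 2 became 1 with quantile normalization, median centring or the 60th percentile filter, 0 without the filter, 5 with a trended and robust eBayes, and 0 to 1 with 1 array left out. The cause of these shifts was not tested. Small differences changed sign under scaling: 13 of 102 collagen differences with median centring and 8 of 102 with quantile normalization, none of them over 0.3 in size. With 1 array left out 112 of 918 changed sign, 2 of them over 0.3 in size, both of Col1a1 without HE replicate 2. Signal over background limits the 24 dim probe sets.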
